A study of Mus musculus with 34 samples.

Results

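The binding of HDAC3, PROX1 and HNF4α was examined at 9 genes of amino acid breakdown and the methyl cycle, of 22367 protein-coding genes in the annotation. The genes were *Tat*, *Hpd*, *Hgd* and *Fah* of tyrosine breakdown, *Tdo2* of tryptophan breakdown, and *Mat1a*, *Gnmt*, *Bhmt* and *Cbs* of the methyl cycle and transsulfuration. They were chosen by name, and all ChIP-seq peaks centred from 50 kb upstream of the transcription start site (TSS) to 2 kb past the gene end were taken. These windows held 70 of the 28631 HDAC3 or PROX1 peaks. A peak with identical coordinates in the HDAC3 and PROX1 lists is called co-bound, and a peak found in 1 of them HDAC3-only or PROX1-only. A co-bound peak is called triply bound when a single HNF4α peak covered at least 50% of it.

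The series holds 34 libraries, and the 3 peak lists rest on 8 of them by the labels and the methods. The IgG library used as input for peak calling is not counted among these. For a comparison in the paper, HNF4α peaks were filtered on *Hnf4α* knockout livers. Whether the deposited HNF4α list had this filter is not known. HDAC3 and PROX1 were precipitated from control livers (3 libraries each), and HNF4α from *Hnf4α* floxed control livers (2 libraries), which by the methods carried an AAV8 virus that expresses *Egfp* from the hepatocyte promoter TBG, so that *Hnf4α* was not deleted. All were livers of male C57B/6 mice, 10 weeks old, collected at zeitgeber time 10. The authors pooled the libraries of a factor before calling peaks, so each list is 1 measurement, with no spread between livers and no known depth. Only the HNF4α list carries a value per peak, in a column without a heading. It is called the HNF4α score here and read as relative strength, on the assumption that it is the HOMER score or a normalized number of reads at the peak. The HNF4α list comes from other mice than the other 2 lists. The labelled tissue was not checked against marker genes, since no expression values were used here.

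The liver is the main site of amino acid catabolism. Tyrosine is transaminated by TAT, and its ring is then oxidized and opened by HPD and HGD before FAH releases fumarate and acetoacetate, while TDO2 opens the ring of tryptophan and starts the kynurenine pathway. MAT1A makes *S*-adenosylmethionine, the methyl donor of the cell, GNMT consumes it by methylating glycine, BHMT returns homocysteine to methionine with betaine, and CBS commits homocysteine to cysteine synthesis. HNF4α is a nuclear receptor that activates hepatocyte genes, HDAC3 is a histone deacetylase of NCoR corepressor complexes, and PROX1 is a homeobox protein of liver.

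The stretches below were read from the mm9 assembly on the strand of the gene. They are the peaks of highest HNF4α score in the *Bhmt*, *Hgd*, *Mat1a*, *Fah* and *Gnmt* windows, a promoter peak of *Mat1a* and of *Gnmt*, and 3 peaks chosen after their values were seen for a match near their centre (*Bhmt* -1923, *Cbs* -18380 and *Gnmt* -4698). Distances are from the TSS to the peak centre, negative upstream. Capitals mark exact matches, on either strand, to the HNF4α core CAAAGNNCA, the C/EBP site TTGCNNAA or the half-site TAGGTCA of Rev-erb, a clock repressor that recruits NCoR and HDAC3, and of ROR, where N is any base.
*Bhmt* -10798 bp (mm9 chr13:94418615-94418814, reverse strand): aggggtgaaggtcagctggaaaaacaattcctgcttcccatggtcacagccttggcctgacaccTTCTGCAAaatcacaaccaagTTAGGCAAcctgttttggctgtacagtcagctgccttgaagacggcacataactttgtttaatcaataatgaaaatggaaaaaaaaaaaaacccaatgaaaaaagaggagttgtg
*Bhmt* -1923 bp (mm9 chr13:94409740-94409939, reverse strand): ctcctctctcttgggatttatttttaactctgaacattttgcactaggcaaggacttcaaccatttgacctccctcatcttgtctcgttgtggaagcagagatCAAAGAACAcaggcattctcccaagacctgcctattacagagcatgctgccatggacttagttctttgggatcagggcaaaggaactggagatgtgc
*Hgd* -13 bp, bases before the TSS (mm9 chr16:37580127-37580238, forward strand): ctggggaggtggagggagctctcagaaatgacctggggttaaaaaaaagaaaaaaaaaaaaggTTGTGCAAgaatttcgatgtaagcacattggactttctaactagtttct
*Mat1a* -472 bp (mm9 chr14:41918099-41918298, forward strand): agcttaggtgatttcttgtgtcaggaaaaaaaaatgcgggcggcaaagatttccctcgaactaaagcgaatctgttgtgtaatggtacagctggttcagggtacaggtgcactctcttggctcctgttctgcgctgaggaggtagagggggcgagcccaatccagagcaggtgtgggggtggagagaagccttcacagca
*Mat1a* +7788 bp (mm9 chr14:41926359-41926558, forward strand): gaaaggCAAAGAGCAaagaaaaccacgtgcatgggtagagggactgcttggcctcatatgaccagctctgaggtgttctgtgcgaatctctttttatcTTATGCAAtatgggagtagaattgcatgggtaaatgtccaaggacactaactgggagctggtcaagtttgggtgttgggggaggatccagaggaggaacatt
*Fah* +2034 bp (mm9 chr7:91753099-91753298, reverse strand): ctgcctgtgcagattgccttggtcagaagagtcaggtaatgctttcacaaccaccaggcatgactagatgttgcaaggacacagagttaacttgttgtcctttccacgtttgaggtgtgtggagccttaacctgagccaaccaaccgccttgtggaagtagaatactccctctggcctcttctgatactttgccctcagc
*Gnmt* -6377 bp (mm9 chr17:46872395-46872594, reverse strand): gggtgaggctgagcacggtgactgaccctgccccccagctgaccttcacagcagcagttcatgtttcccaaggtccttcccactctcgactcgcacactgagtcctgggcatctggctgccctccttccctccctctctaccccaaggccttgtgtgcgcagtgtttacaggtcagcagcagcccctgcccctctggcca
*Gnmt* -4698 bp (mm9 chr17:46870716-46870915, reverse strand): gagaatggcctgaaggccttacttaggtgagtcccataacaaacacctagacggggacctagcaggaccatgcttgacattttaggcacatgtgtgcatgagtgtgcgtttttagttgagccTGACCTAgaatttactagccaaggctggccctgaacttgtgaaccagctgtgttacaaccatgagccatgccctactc
*Gnmt* -275 bp (mm9 chr17:46866293-46866492, reverse strand): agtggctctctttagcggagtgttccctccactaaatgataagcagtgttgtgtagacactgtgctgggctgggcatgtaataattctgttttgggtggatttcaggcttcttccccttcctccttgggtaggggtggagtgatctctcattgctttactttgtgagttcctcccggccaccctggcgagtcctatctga
*Cbs* -18380 bp (mm9 chr17:31792425-31792624, reverse strand): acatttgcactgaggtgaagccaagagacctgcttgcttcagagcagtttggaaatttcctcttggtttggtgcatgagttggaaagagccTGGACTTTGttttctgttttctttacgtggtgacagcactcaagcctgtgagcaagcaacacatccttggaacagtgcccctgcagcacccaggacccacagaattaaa

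All 9 genes had co-bound and triply bound peaks. Their windows held 53 co-bound peaks, of which 35 were triply bound, with 13 PROX1-only and 4 HDAC3-only peaks. *Cbs* had the most co-bound peaks (10), followed by *Tat* and *Hpd* (8 each), *Tdo2* and *Mat1a* (7 each), *Bhmt* (5), *Hgd* and *Gnmt* (3 each) and *Fah* (2). The median was 7 co-bound peaks per gene, or 9.84 per 100 kb of window, with a median of 0 over all protein-coding genes on either scale. At least 1 co-bound peak lay in 38.4% of all gene windows, and at least 1 triply bound peak in 31.1%. Having 2 or more triply bound peaks was shared by 8 of the 9 genes and by 17.7% of all windows, and having 5 or more by *Hpd*, *Bhmt*, *Mat1a* and *Cbs* and by 3.45% of all windows. The windows were of similar length, with a median of 71.1 kb for the 9 genes and 67.4 kb for all. The counts have no replicate error, so neighbouring ranks such as 7 and 8 cannot be separated, and the order moved with the window. Starting 10 kb upstream, *Mat1a* and *Cbs* led with 7 co-bound peaks each, and starting 100 kb upstream *Cbs* (12) and *Bhmt* (11) led and *Gnmt* (3) had the fewest. No test of the excess was made because the genes were chosen with results of these lists known.

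**Figure D1:**
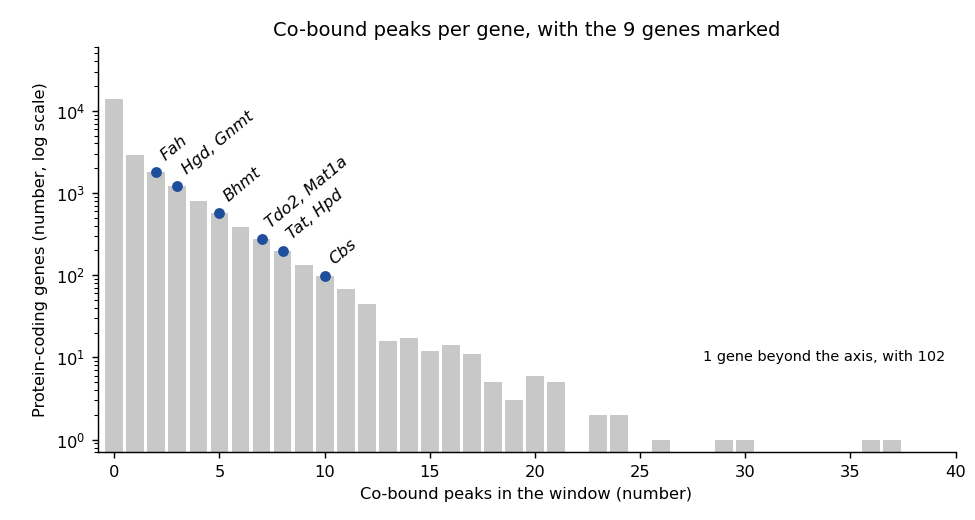
Number of protein-coding genes (log axis) by the number of co-bound peaks in their windows (grey bars), with the 9 genes marked as blue points at their own counts. The 9 genes lie from 2 (*Fah*) to 10 (*Cbs*) co-bound peaks, while 13779 genes had 0, and 1 gene with 102 lies beyond the axis.

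HNF4α covered 66.0% of the co-bound peaks of the 9 genes (35 of 53, 95% Wilson CI 52.6 to 77.3, counting error only), and 61.3% of all 20039 co-bound peaks, a value inside that interval. The share was 67.9% (19 of 28) at the tyrosine and tryptophan genes and 64.0% (16 of 25) at the methyl cycle genes. Of the other 18 co-bound peaks, 15 were untouched by an HNF4α peak and 3 were touched by one that covered less than 50%. Neighbouring peaks are not independent, and 51 of the 53 co-bound peaks also lay in the window of another protein-coding gene. The TSS of the named gene was the nearest one for 40 of the 53, of which 27 were triply bound, and another TSS was nearer for 13, of which 8 were triply bound.

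**Figure D2:**
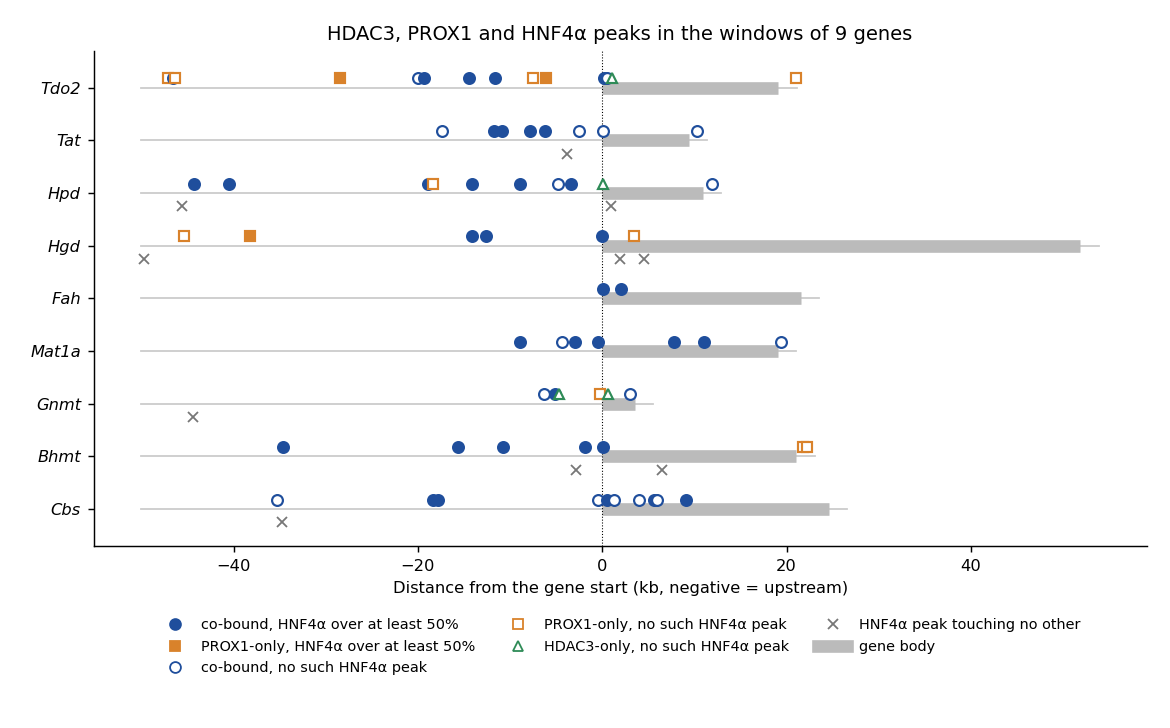
Positions of all peaks in the 9 windows, in kb from the gene start, with the gene body as a grey bar. Circles are co-bound, squares PROX1-only and triangles HDAC3-only peaks, filled where an HNF4α peak covered at least 50%, and crosses are HNF4α peaks that touched neither factor. Filled circles stand in all 9 windows, all circles of *Hgd*, *Fah* and *Bhmt* are filled, and markers closer than about 1 kb overlap.

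All 4 genes of tyrosine breakdown had triply bound peaks. *Tat* (chr8:112514337-112523703, forward strand) had 8 co-bound peaks and no peak of a single factor of the pair. The 4 triply bound ones formed a group upstream at -11750, -10864, -7862 and -6200 bp, with HNF4α scores of 26.4, 53.7, 49.5 and 39.1. The co-bound peak at the *Tat* TSS, centred at +86 bp, was untouched by HNF4α, as were the peaks at -2510 and +10261 bp. The strongest HNF4α peak of the window, at -3830 bp with a score of 69.3, touched neither HDAC3 nor PROX1. The promoter peak of HDAC3 and PROX1 and the strongest HNF4α peak were thus separate sites at *Tat*.

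*Hpd* (chr5:123621816-123632734, reverse strand) had 8 co-bound peaks, 6 of them triply bound. This was the largest such number among the 9 genes in these windows and by the 50% rule, but it was 2 from 10 kb upstream, where *Mat1a* had 5, and 2 at 75% cover, where *Cbs* had 5. Their HNF4α scores were 87.2 at -44346 bp, 66.4 at -40543 bp, 41.5 at -18953 bp, 74.4 at -14183 bp, 82.9 at -8924 bp and 57.5 at -3349 bp, the last being the co-bound peak nearest to the TSS. The 2 most distant ones lay nearer to the TSS of *Psmd9*. The *Hpd* promoter itself held no co-bound peak. It held an HDAC3-only peak at +77 bp and, in the same promoter at +973 bp, an HNF4α peak with a score of 71.1 that touched neither HDAC3 nor PROX1. A PROX1-only peak without HNF4α lay at -18361 bp.

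*Hgd* (chr16:37580239-37632106, forward strand) had 3 co-bound peaks, all triply bound. The peak on its TSS, centred at -13 bp, carried an HNF4α score of 108.4, the highest of any triply bound peak of the 9 genes and above 97.9% of the HNF4α list. The HNF4α and co-bound peaks there were centred 4 bp apart. The other 2, at -14116 and -12617 bp in introns of the neighbour *Rabl3*, had scores of 37.2 and 42.9. *Hgd* also had 3 PROX1-only peaks, 1 of them covered by HNF4α, and 3 HNF4α peaks that touched neither factor, of which 2 lay in its own introns at +1939 and +4512 bp. *Hgd* was the longest gene of the 9 (51.9 kb), and no co-bound peak was centred past its promoter.

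*Fah* (chr7:91733669-91755232, reverse strand) had the fewest peaks in these windows, with 2 co-bound peaks at +70 bp in the promoter and at +2034 bp in an intron. It had 6 co-bound peaks in the window from 100 kb upstream, and from 10 kb upstream *Hgd*, with 1, had fewer than *Fah*. Both were triply bound, with HNF4α scores of 70.7 and 74.0, and no other peak of any list lay in the 50 kb window. HNF4α covered 53.5% and 54.5% of them, the lowest cover among the triply bound peaks, and their centres lay 71 and 63 bp from those of the HNF4α peaks. Next above them came *Tat* -10864 (55%) and *Hpd* -3349 (55.5%), and just below the 50% limit lay *Tdo2* -46590 (42.5%) and *Gnmt* -6377 (42%).

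*Tdo2* (chr3:81761012-81780124, reverse strand), whose product catalyses the rate-limiting step of tryptophan breakdown, had the most PROX1-only peaks of the 9 genes in these windows. Its window held 7 co-bound, 6 PROX1-only and 1 HDAC3-only peak, and so 6 of the 13 PROX1-only peaks of all 9 genes. Within the promoter a triply bound peak at +233 bp (score 50.9) stood 269 bp from a co-bound peak at +502 bp that HNF4α did not touch, and an HDAC3-only peak followed at +1078 bp, near the start of another transcript. The strongest HNF4α peak, at -11626 bp with a score of 70.7, was triply bound and centred within 1 bp of the co-bound peak. The 5 upstream co-bound peaks were all nearer to the TSS of *Accn5* than to that of *Tdo2*, so the count for *Tdo2* fell from 7 to 2 when peaks were given to the nearest TSS. The upstream PROX1-only peaks were all nearer to the TSS of *Accn5* as well. The last PROX1-only peak, at +20979 bp, was nearest to the TSS of *Tdo2* but lay in a UTR of *Ctso*. HNF4α covered 2 of the 6 PROX1-only peaks, at -28461 bp (score 58.4) and -6072 bp (score 28.3), and both lie in an exon or the promoter of *Accn5*.

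**Figure D3:**
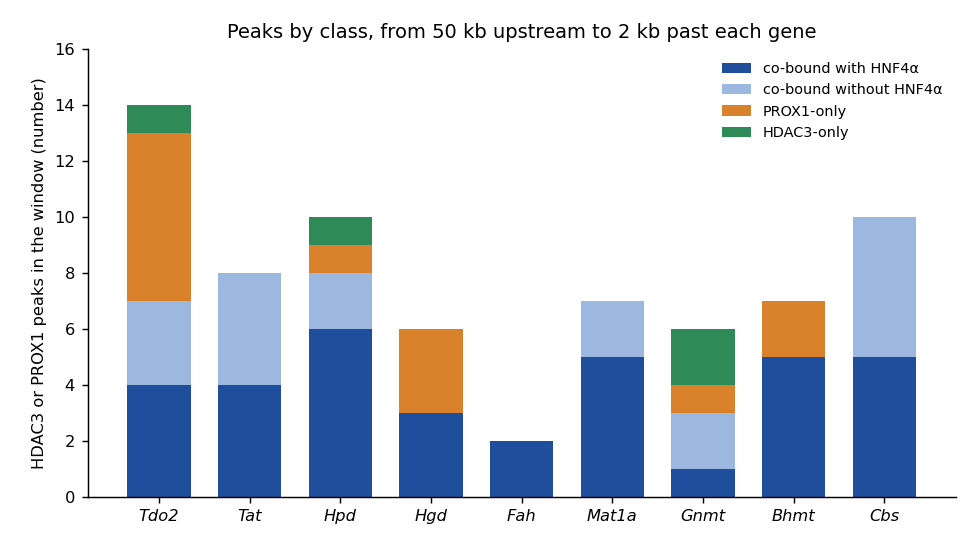
Number of HDAC3 or PROX1 peaks in each window, stacked by class. *Tdo2* has the tallest bar (14 peaks) through 6 PROX1-only peaks, most of them nearer to the TSS of *Accn5*. *Tat*, *Fah*, *Mat1a* and *Cbs* consist of co-bound peaks alone, and HDAC3-only peaks occur at *Tdo2*, *Hpd* and *Gnmt*.

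At the methyl cycle genes, triply bound peaks ranged from 1 of 3 co-bound peaks at *Gnmt* to 5 of 5 at *Bhmt*. *Mat1a* (chr14:41918670-41937701, forward strand) had 7 co-bound peaks and no HDAC3-only or PROX1-only peak. Of these, 5 were triply bound, at -8897 bp (score 52.8), -2962 bp (51.8), -472 bp in the promoter (50.4), +7788 bp (90.9) and +11042 bp (58.0), the last 2 in introns. All 5 scores lay above the median of the HNF4α list, 41.9. HNF4α touched neither the peak at -4419 bp nor the one at +19417 bp beyond the gene end.

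*Bhmt* (chr13:94386846-94407916, reverse strand) had 5 co-bound peaks and all were triply bound. It also had the highest median score of the 9 genes at triply bound peaks (93.8), with 93.8 at -15662 bp, 103.7 at -10798 bp, 101.8 at -1923 bp and 79.2 at +104 bp in the promoter, each above 88.4% or more of the HNF4α list. The farthest, at -34676 bp in an intron of the paralogue *Bhmt2*, had a score of 53.7 and was nearer to the *Bhmt2* TSS. The HNF4α peaks at -2805 and +6468 bp that touched neither factor were weaker, with scores of 38.6 and 35.3. Both PROX1-only peaks, without HNF4α, lay beyond the 3′ end of the gene.

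*Cbs* (chr17:31749568-31774144, reverse strand) had 10 co-bound peaks, more than 98.6% of all genes, but the lowest median HNF4α score at triply bound peaks (38.2). Its 5 triply bound peaks scored 42.4 at -18380 bp, 38.2 at -17825 bp, 60.3 at +487 bp, 22.1 at +5604 bp and 30.6 at +9055 bp. The 2 upstream ones lay in *U2af1*, in an intron and a coding exon. Around the start of *Cbs*, 3 co-bound peaks were centred in the promoters of its transcripts, and HNF4α covered that at +487 bp and touched neither that at -501 bp nor that at +1266 bp. The remaining 3 co-bound peaks without HNF4α lay at -35292, +3964 and +5922 bp. The last of these lay 318 bp from the triply bound peak at +5604 bp, so HNF4α cover differed between close neighbours here as it did at the *Tdo2* promoter.

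*Gnmt* (chr17:46862613-46866117, reverse strand) had 1 triply bound peak of 3 co-bound ones, the fewest of the 9 genes in these windows and by the 50% rule. *Tdo2* and *Hgd* also had 1 from 10 kb upstream, and *Fah* had 0 at 75% cover. The triply bound peak lay at -5111 bp with a score of 42.9. The strongest HNF4α peak of all 9 windows, with a score of 121.1 and above 99.3% of the list, lay at the co-bound peak at -6377 bp but covered 42% of it, with the centres 96 bp apart, so that peak falls outside the 50% rule. The third co-bound peak, at +3017 bp in a coding exon, was untouched by HNF4α. The *Gnmt* promoter held single-factor peaks, a PROX1-only peak at -275 bp and an HDAC3-only peak at +575 bp, neither with HNF4α. A further HDAC3-only peak lay at -4698 bp, 413 bp from the triply bound peak.

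**Figure D4:**
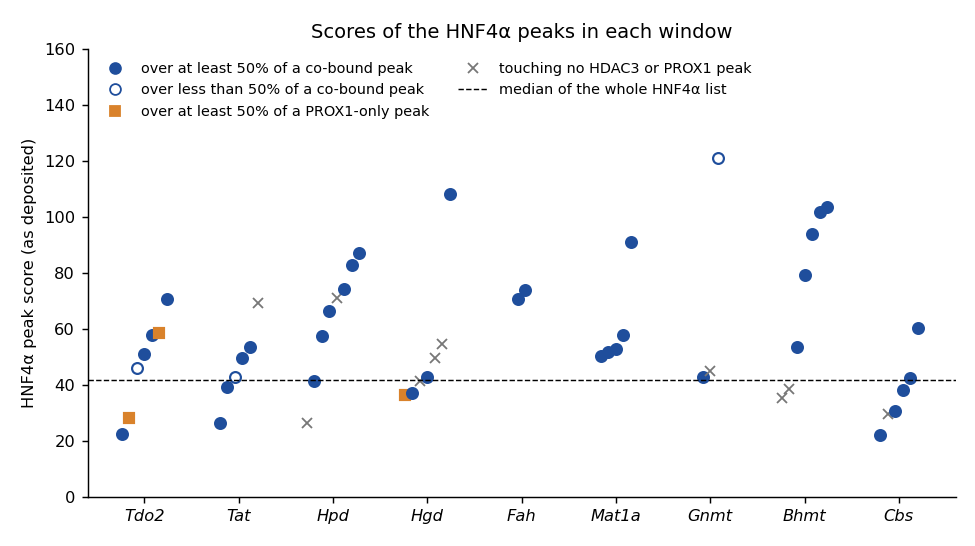
HNF4α score (the deposited value without a heading, assumed to measure peak strength) of every HNF4α peak in the 9 windows, 1 column of points per gene, sorted within the gene, with the median of the whole HNF4α list (41.9) as a dashed line. Filled circles cover at least 50% of a co-bound peak, the open circles less (*Gnmt* 121.1, *Tdo2* 46.2 and *Tat* 42.9), squares cover a PROX1-only peak and crosses touch neither factor. All points of *Fah* and *Mat1a* and all filled circles of *Bhmt* lie above the line, and 3 of the 5 filled circles of *Cbs* lie below it.

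The HNF4α score at the 35 triply bound peaks had a median of 53.7 and ranged from 22.1 (*Cbs*) to 108.4 (*Hgd*). The median over all triply bound peaks was 52.3, so the 9 genes were close to the list as a whole. Of the 35, 27 lay above the median of the HNF4α list (41.9). The median of all triply bound peaks lay above it too, so this is no trait of the 9 genes. The centres of the HNF4α and co-bound peaks were a median of 19 bp apart and at most 71 bp apart. The cover rule that defines triply bound peaks itself keeps these centres close, so the distances are no separate evidence of alignment. They were not compared with the distances at all triply bound peaks. The windows also held 10 HNF4α peaks that touched neither HDAC3 nor PROX1, at *Tat*, *Hpd*, *Hgd*, *Bhmt*, *Gnmt* and *Cbs*. Such peaks occurred in 33.7% of all gene windows. Their median score was 43.15, compared with 32.5 over all 7608 of the kind, and the strongest were the peaks of *Hpd* (71.1) and *Tat* (69.3) named above.

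PROX1-only peaks made up 18.6% of the 70 peaks (95% Wilson CI 11.2 to 29.2) and 25.8% of the whole lists. They lay in the windows of *Tdo2* (6), *Hgd* (3), *Bhmt* (2), *Hpd* (1) and *Gnmt* (1), that is of 5 of the 9 genes, and in 25.2% of all windows. HNF4α covered 3 of the 13 (23.1%, CI 8.18 to 50.3), against 36.7% of all PROX1-only peaks. The 4 HDAC3-only peaks made up 5.71% of the 70 (CI 2.24 to 13.8) and 4.22% of the whole lists. They lay at *Tdo2*, *Hpd* and *Gnmt*, 3 of the 9 genes, and 7.4% of all windows held such a peak. HNF4α covered none of the 4 (CI up to 48.99%), and 14.0% of all HDAC3-only peaks. Of the 4, 3 were centred within 1 kb of the start of a transcript of the gene. The share of all HDAC3-only peaks that lie in promoters was not counted, so this is not shown to be a trait of the 9 genes.

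Promoters were bound at most of the 9 genes. A co-bound peak was centred within 1 kb of a transcript start at 7 of them, all but *Hpd* and *Gnmt*, and at 6.33% of all genes. At least 1 promoter peak was triply bound at *Tdo2*, *Hgd*, *Fah*, *Bhmt*, *Mat1a* and *Cbs*, against 3.8% of all genes, and the exception was *Tat*. Promoter co-bound peaks without HNF4α stood beside it at *Tdo2* (1) and *Cbs* (2). Promoter HDAC3-only peaks stood at *Tdo2*, *Hpd* and *Gnmt* (1.15% of all genes) and a promoter PROX1-only peak at *Gnmt* (2.56% of all genes). So both promoters without a co-bound peak, those of *Hpd* and *Gnmt*, held an HDAC3-only peak. Counting any promoter, 20.8% of the 53 co-bound peaks were promoter peaks (11 peaks, CI 12.0 to 33.5), compared with 8.01% of all co-bound peaks, and 20.8% lay in introns (11 peaks), compared with 46.3%. The windows cover the upstream flank and body of single genes and the lists the whole genome, so the shares were not taken over the same kind of sequence. HNF4α covered 6 of the 11 promoter peaks (54.5%), 9 of the 11 intronic ones (81.8%, CI 52.3 to 94.9) and 19 of the 29 intergenic ones (65.5%). The shares over all co-bound peaks were 54.6%, 61.4% and 62.2%, each inside the interval of the 9 genes.

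The letters of the peaks were compared with those of all peaks of the same 200 bp width. The HNF4α core CAAAGNNCA was found in 6 of the 35 triply bound peaks (17.1%, CI 8.10 to 32.7) and in 23.9% of all triply bound peaks. All 6 belonged to methyl cycle genes, 2 each to *Bhmt*, *Mat1a* and *Cbs*. They were CAAAGAACA at *Bhmt* -1923, CAAAGGTCA at *Bhmt* +104, CAAAGAGCA at *Mat1a* +7788, CAAAGGCCA at *Mat1a* +11042, CAAAGTCCA at *Cbs* -18380 and CAAAGAACA at *Cbs* +487. The match lay 7 bp from the peak centre at *Bhmt* -1923 and 5 bp from it at *Cbs* -18380, as the printed stretches show. In the other peaks it lay farther out, at 34 bp (*Cbs* +487), 51 bp (*Mat1a* +11042), 53 bp (*Bhmt* +104) and 89 bp (*Mat1a* +7788). None of the 19 triply bound peaks of the tyrosine and tryptophan genes held the core (CI up to 16.8%), against 6 of the 16 of the methyl cycle genes (37.5%, CI 18.5 to 61.4), a split noticed after the matches were seen. The split does not extend to all HNF4α-covered peaks. CAAAGGGCA lay 3 bp from the centre of *Tdo2* -6072, a PROX1-only peak covered by HNF4α. This was 1 of the 13 PROX1-only peaks (7.69%), and 18.1% of all PROX1-only peaks held the core. The 2 triply bound peaks of highest HNF4α score, *Hgd* -13 and *Bhmt* -10798, held no exact core but 2 C/EBP matches each. The core was also found in 4 of the 18 co-bound peaks without HNF4α (22.2%, CI 9.001 to 45.2), against 8.79% of all such peaks. These were CAAAGTTCA at *Tat* -17418, CAAAGATCA at *Hpd* +11882 and *Mat1a* +19417, and CAAAGCCCA at *Gnmt* +3017.

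The C/EBP site TTGCNNAA was found in 14 of the 35 triply bound peaks (40%, CI 25.6 to 56.4) and in 27.5% of all triply bound peaks. It occurred at both groups of genes, in 8 of 19 triply bound peaks of the tyrosine and tryptophan genes and in 6 of 16 of the methyl cycle genes. Matches in triply bound peaks lay anywhere from the peak centre to 90 bp from it, the latter at *Bhmt* -34676. At *Hpd* -14183 the match TTGCGTAA lay on the peak centre and a second match lay 89 bp from it. At *Mat1a* +7788 TTGCATAA lay 2 bp from the centre, while the HNF4α core of the same peak lay 89 bp from it. At *Tat* -17418 the HNF4α core and TTGCAAAA overlapped by 3 bases. The half-site TAGGTCA was found in 3 of the 53 co-bound peaks (5.66%), at *Tdo2* +502, *Bhmt* -15662 and *Gnmt* -5111, and in 5.04% of all co-bound peaks. It was also found in 1 of the 4 HDAC3-only peaks, *Gnmt* -4698, 25 bp from the centre, and in 9.52% of all HDAC3-only peaks. A match is a description of the letters and does not show that a factor bound there.

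Other genes of the same pathways were read in the same way. Of 47 further genes in 4 lists, 44 had at least 1 triply bound peak, with a median of 4 co-bound peaks per gene. Their 212 distinct co-bound peaks were triply bound in 62.3% (CI 55.6 to 68.5). In the methyl cycle and transsulfuration list 14 of 15 genes had a triply bound peak, in the tryptophan list 7 of 7, in the list of phenylalanine and tyrosine breakdown 3 of 4, and in the list of glycine, serine, histidine, lysine, proline, branched chain and transamination genes 20 of 21. The median number of co-bound peaks was 5, 3, 3.5 and 4 in these lists. The most triply bound peaks were found at *Gldc*, the glycine decarboxylase, with 10 of 13 co-bound peaks, and at *Dmgdh*, the dimethylglycine dehydrogenase that follows BHMT, with 10 of 11. Both windows were long, 129 kb at *Gldc* and 130 kb at *Dmgdh*, against a median of 76.9 kb for the 47 genes. The *Dmgdh* window overlaps that of *Bhmt* and includes all 5 of its co-bound peaks, and the *Bhmt2* window includes 1 of them. The 212 peaks therefore include those of *Bhmt*. The genes without a triply bound peak were *Pcbd1*, *Mtr* and *Dbt*, which had no co-bound peak either. *Pcbd1*, which serves the recycling of the cofactor of phenylalanine hydroxylase, had an HDAC3-only peak in its promoter, and *Mtr*, the methionine synthase that returns homocysteine to methionine with folate, had 0 triply bound peaks where *Bhmt*, which does so with betaine, had 5. HDAC3-only peaks lay in the windows of 8 of the 47 genes and PROX1-only peaks in those of 18.

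The 6 urea cycle genes, which dispose of the nitrogen that amino acid breakdown releases, were set beside the 9 genes. All 6 had a triply bound peak. They had a median of 6.5 co-bound peaks per gene, compared with 7, and 61.3% of their 31 co-bound peaks were triply bound (CI 43.8 to 76.3), and the interval includes the 66.0% of the 9 genes. A triply bound promoter peak stood at 2 of the 6 urea cycle genes, at 17 of the 47 other pathway genes and at 6 of the 9 genes described here.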

How the data were processed

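Livers were cross-linked and precipitated with antibodies against HDAC3, PROX1 or HNF4α, and the DNA was sequenced. By the methods the replicates of a ChIP came from livers of different mice. Whether HDAC3 and PROX1 were precipitated from the same livers is not stated. Reads were mapped by the authors with Bowtie 0.12.7 to mm9 (submitters’ processing notes), and they removed duplicates, pooled the replicates of a factor and called peaks with HOMER against IgG. They deposited 1 peak list per factor. The HDAC3 and PROX1 lists give positions of 200 bp peaks in unlabelled blocks, with 3 empty lines in each list. The co-bound peaks lie in the first 3 blocks. They have the same coordinates in both lists, so co-binding is the authors' own classification. By the methods the signal cutoff for a peak was lower for HDAC3 than for PROX1. A lower signal of the other factor than either cutoff sufficed for overlap. The HDAC3-only and PROX1-only classes thus rest on unlike thresholds. In the HNF4α list alone the authors deposited a score per peak (20.3 to 160.2). Its column has no heading, and it is assumed to be the HOMER score or a normalized number of reads. Depth per library is unknown.

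From these lists, peaks were assigned by their centres to windows around GENCODE vM1 protein-coding genes on NCBIM37, which is mm9. A promoter is 1 kb around the start of a protein-coding transcript. The 95% intervals of shares are Wilson intervals over peaks and take in counting error alone. No test was made, since each list is pooled and the members and lists of genes were chosen with earlier results of these data known. The rule for single peaks named was every peak within 1 kb of a TSS of a gene, the co-bound peak nearest to each TSS, the peak of highest HNF4α score and every HDAC3-only peak, and other single peaks were chosen after their values were seen. Motifs were searched as exact letters on both strands of the 200 bp peaks, where overlapping matches count. Printed stretches leave out UTRs. Code was tested on simulated data. Python 3.11.15, numpy 2.4.6, scipy 1.17.1, pysam 0.24.0, samtools 1.23.1 and matplotlib 3.10.9 were used. Alternatives changed the window, the gene model, the HNF4α cover, the HNF4α list and the merging of peaks. The RNA-seq, H3K27Ac and knockout libraries were not analysed here.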

Additional observations from a re-analysis of the deposited data

How the results depend on the processing

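The window and the HNF4α rule set the counts. Starting the windows 10 kb upstream left 33 of the 53 co-bound peaks and 7 of the 13 PROX1-only peaks. By gene, co-bound peaks then went from 8 to 5 at *Tat*, 7 to 2 at *Tdo2*, 8 to 4 at *Hpd*, 3 to 1 at *Hgd* and 5 to 2 at *Bhmt*. Starting 100 kb upstream took *Bhmt* from 5 to 11, *Fah* from 2 to 6 and *Hgd* from 3 to 5, and giving peaks to the nearest TSS took *Tdo2* from 7 to 2. The order of the genes by these counts therefore holds for the 50 kb windows alone. The triply bound share fell from 66.0% to 32.1% when HNF4α had to cover at least 75% of a peak, a limit close to the greatest width of an HNF4α peak (168 bp against 200 bp), and to 50.9% with HNF4α peaks above the median score. At 75% cover *Fah* lost both of its triply bound peaks and 8 of the 9 genes kept one. Under the other settings tried for it (windows of 10 and 100 kb, the nearest TSS, the longest transcript, any overlap and merged peaks) the share lay between 57.6% and 71.7%. The 4 HDAC3-only peaks were found under every window and gene model tried. No paired analysis was possible because each list pools its libraries and no result comes from a test. Depth limits which weak peaks were listed, and a peak missing from a list does not show that the factor was absent.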

Other observations

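The HDAC3 and PROX1 lists hold their co-bound peaks in 3 blocks whose meaning no label gives. Of the 53 co-bound peaks of the 9 genes, 45 lay in the first block, 3 in the second and 5 in the third. HNF4α covered 34 of the 45 (75.6%, 95% Wilson CI 61.3 to 85.8), 1 of the 3 and 0 of the 5 (CI up to 43.4%). Over the whole lists the shares were 66.4%, 51.1% and 32.6%. The 5 peaks of the third block were the promoter peak of *Tat* at +86 bp, the peak in the *Accn5* promoter upstream of *Tdo2*, and the peaks at *Hpd* +11882, *Mat1a* +19417 and *Gnmt* +3017. The last 3 each held an exact HNF4α core, 13, 87 and 20 bp from the peak centre, as seen after the matches were known. The core was found in 8.79% of all co-bound peaks without HNF4α, and its share over the third block was not counted.

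By distance from the TSS, HNF4α covered 10 of the 19 co-bound peaks within 5 kb (52.6%, CI 31.7 to 72.7), 22 of the 29 from 5 to 20 kb (75.9%, CI 57.9 to 87.8) and 3 of the 5 farther out. The intervals overlap, and the bands were chosen after the peaks were seen.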
